A study of Mus musculus with 12 samples.

Results

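The change in open chromatin from long-term haematopoietic stem cells (LT-HSC) to multipotent progenitors (MPP) was measured in mice without Phf6 by ATAC-seq, an assay that cuts and tags accessible DNA with a transposase. The libraries were taken by their labels: 3 of LT-HSC and 3 of MPP from Phf6-knockout (KO) mice, 6 of the 12 libraries of the series. The KO mice were Phf6-/Y Rosa26+/Cre-ERT2, so each was male, lacked its single X-linked Phf6 allele and carried a tamoxifen-activated Cre at Rosa26. The other 6 libraries, 3 of LT-HSC and 3 of MPP, came from Phf6f/Y Rosa26+/+ males, whose floxed allele is intact without Cre; they are called WT. Per the labels, LT-HSC were collected 8 weeks after tamoxifen, with 20000 sorted cells going into each nuclei preparation, from 3 individual mice of each genotype. How MPP were prepared, the sort gates, the age of the mice and whether an LT-HSC and an MPP library of the same number were taken from 1 mouse is not stated in the labels. All KO mice and no WT mice carried Cre-ERT2, so the effect of the Cre and of Phf6 loss cannot be told apart in any KO-to-WT comparison; within KO, LT-HSC and MPP shared both.

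LT-HSC sit at the top of blood formation: they are mostly quiescent, renew themselves and are kept by transcription factors such as Mecom, Hlf, Meis1 and Prdm16. MPP arise from them, divide more, lose long-term self-renewal and begin to open the genes of the myeloid and lymphoid lines. PHF6 is a nuclear, chromatin-associated zinc finger protein that is recurrently mutated in human T-cell and myeloid leukaemias.

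The deposited table held raw read counts in 188262 regions of GRCm38, of which 186373 were tested; 1889 fell under the filter on low counts. Total counts ran from 22665988 (KO LT-HSC 3) to 41086637 (KO MPP 2) over the KO libraries and from 28842890 to 48547234 over WT. Levels are given as CPM, counts scaled to a common library size after TMM, and changes as log2 fold change of MPP over LT-HSC ± its standard error, with p-values of edgeR's quasi-likelihood F test adjusted by the Benjamini-Hochberg method over all tested regions. A region that rose or fell passed an adjusted p of 0.05. With 3 libraries against 3, an exact permutation test of a single region cannot go below p = 0.1, so the calls rest on the spread shared by all regions. Replicates correlated at r = 0.971 to 0.982 across regions and differed by more than counting error. LT-HSC and MPP libraries of both genotypes separated along the first principal component (80.3% of variance), and KO and WT libraries along the second (5.05%).

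Accessibility at Phf6 itself was read first. The region at the gene end with no assigned strand (chrX:52912011-52912448) had 28.8, 27.0 and 26.5 CPM in KO LT-HSC 1 to 3 and 29.7, 27.7 and 28.4 CPM in KO MPP 1 to 3, against means of 26.5 CPM in WT LT-HSC and 31.4 CPM in WT MPP. These values overlapped, with a log2 fold change of 0.06 ± 0.07 and an adjusted p of 0.473. Of the 10 tested regions assigned to Phf6, 2 rose and 2 fell from KO LT-HSC to KO MPP, against 4 and 3 in WT. Whether any of these regions overlaps the deleted exons was not examined, so the counts do not check the deletion.

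Without Phf6, accessibility changed across most of the measured regions between LT-HSC and MPP. Of the tested regions, 126152 (67.7%) passed the test: 62099 (33.3%) rose and 64053 (34.4%) fell. A change of at least 2-fold was found in 34430 regions that rose (18.5%) and 34176 that fell (18.3%), and one of at least 4-fold in 11842 and 10927. The median absolute log2 fold change was 0.71 and the median signed change was 0. All 3 KO MPP libraries lay above all 3 KO LT-HSC libraries in 65599 regions (35.2%) and below them in 66820 (35.9%). When a change of over 1.5-fold was tested directly, 74480 regions passed, 36252 of them higher in MPP and 38228 lower.

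At the genes that define the sorted populations, the region of lowest p moved in the direction of the labels; these regions were picked for their change. At Slamf1, which encodes the stem cell surface receptor CD150, the region of lowest p (chr1:171773106-171773665, in the gene body) had 15.5, 17.0 and 15.9 CPM in the KO LT-HSC libraries and 1.25, 1.78 and 1.97 CPM in the KO MPP libraries. The groups were far apart, and the log2 fold change was -3.24 ± 0.12 (adjusted p = 5.01e-20) against -3.86 in WT. At Procr, which encodes the endothelial protein C receptor used to sort stem cells, a region 8482 bp from the gene (chr2:155742164-155742643) went from 15.9, 15 and 14.4 CPM to 5.15, 5.23 and 4.64 CPM. Its change was -1.60 ± 0.11 (adjusted p = 3.01e-14). At Hlf, a stem cell transcription factor gene, a gene body region (chr11:90381997-90382703) held 15.1, 14.9 and 14.9 CPM in LT-HSC and 2.65, 3.04 and 2.94 CPM in MPP. It fell by 2.37 ± 0.10 on the log2 scale (adjusted p = 5.47e-19). Mecom, whose product EVI1 is needed for stem cell maintenance, had a gene body region (chr3:30455518-30456351) at 13.0, 12.9 and 12.8 CPM in LT-HSC that fell by 1.86 ± 0.11 (adjusted p = 2.23e-15), to 3.70, 3.48 and 3.5 CPM in MPP.

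On the MPP side, the promoter region of lowest p at Cd48 (chr1:171681002-171681403), whose product is absent from LT-HSC by the usual sort and present on most progenitors, had 0.826, 0.991 and 0.579 CPM in KO LT-HSC and 5.07, 5.36 and 5.82 CPM in KO MPP. This is a rise of 2.73 ± 0.17 (adjusted p = 5.81e-15). Satb1, a chromatin organiser that promotes lymphoid fate, had a gene body region (chr17:51784915-51785349) at 0.743, 0.354 and 0.445 CPM in LT-HSC and 6, 5.63 and 6.50 CPM in MPP. It rose by 3.48 ± 0.20 (adjusted p = 4.75e-16), and the libraries of each group lay close together. Flt3, the cytokine receptor that marks lymphoid-primed progenitors, rose by 1.53 ± 0.14 (adjusted p = 2.48e-11) at chr5:147339514-147340133, from 3.94, 3.01 and 2.27 CPM to 8.93, 9.28 and 9.16 CPM. A region 10439 bp from Cd34, a surface sialomucin gained early in differentiation, went from 5.64, 6.47 and 4.68 CPM to 14.7, 14.9 and 15.3 CPM, a rise of 1.41 ± 0.10 (adjusted p = 1.91e-13). Over all its regions Cd34 was mixed, with 13 of 24 higher and 8 lower, 8 and 4 of them by at least 2-fold, and Cd48 had 7 of 9 higher and 2 lower. Of the LT-HSC genes, Slamf1 had 4 of 11 regions lower and 0 higher, and Procr 5 of 7 lower and 1 higher. Over all tested regions 33.3% rose and 34.4% fell in KO, so the share that fell at Slamf1 lay close to that of all regions.

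**Figure D1:**
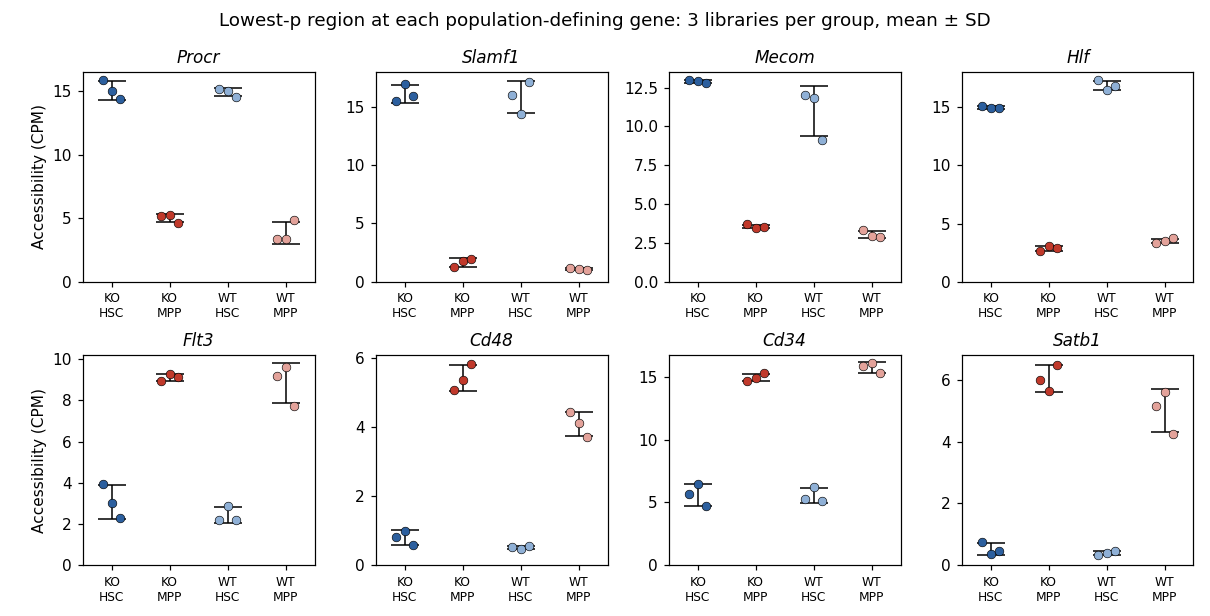
Accessibility in CPM (vertical axes, from 0) of the region of lowest p at each of 8 defining genes in the 3 libraries of each group, with bars for mean ± SD. The KO LT-HSC and KO MPP libraries do not overlap in any panel: Procr, Slamf1, Mecom and Hlf are lower in MPP, and Flt3, Cd48, Cd34 and Satb1 are higher.

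The main promoter of the same genes was read as well. It was taken by its level and the regions above by their p, so a smaller change at the promoter follows from that choice. The most accessible promoter region of Hlf did not pass the test: it had 23.1, 21.8 and 21.5 CPM in KO LT-HSC and 23.3, 22.2 and 24.0 CPM in KO MPP (log2 fold change 0.06 ± 0.08, adjusted p = 0.469). Those of Procr, Slamf1 and Mecom changed by -0.40 ± 0.10, -0.35 ± 0.13 and -0.25 ± 0.06, and those of Flt3, Cd34, Satb1 and Cd48 by 0.56 ± 0.06, 0.53 ± 0.08, 0.86 ± 0.08 and 0.94 ± 0.12. All 7 passed at adjusted p-values from 7.07e-11 to 0.0212, that of Slamf1 being the highest. The Slamf1 promoter lost its call with a loess offset (adjusted p = 0.103), without KO LT-HSC 2 (adjusted p = 0.125) and without KO MPP 2 (adjusted p = 0.0935).

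Region classes differed in the size of their changes and in their level. Of 17774 promoter regions, within 1 kb of a RefSeq start site, 790 rose and 2022 fell by at least 2-fold (15.8% in both directions), and the median absolute log2 fold change was 0.34. Of 87560 gene body regions, 16727 rose and 16990 fell by at least 2-fold (38.5%), with a median absolute change of 0.75. Of 75658 intergenic regions, 16532 rose and 14399 fell (40.9%), with a median absolute change of 0.80. Promoter regions were also the most accessible class, with a median of 10.9 CPM in the KO libraries against 1.61 CPM in gene bodies and 1.51 CPM in intergenic regions; region length was not taken into account. Over all regions, promoters included, the median absolute change fell with level, from 1 in the lowest quartile to 0.38 in the highest, whose median was 9.9 CPM. Promoters were not compared with other regions of like level, so the part of level in their smaller changes was not tested. The share of counts in promoter regions was 34.2% to 34.7% in the KO LT-HSC libraries and 36% to 36.4% in the KO MPP libraries. Its part in the changes was not tested.

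The loci with most regions lower by at least 2-fold in KO MPP included 3 genes of the HSC identity list described here, and their counts in WT lay close by. Mecom had 103 tested regions, of which 82 fell and 3 rose in KO, 65 and 2 of them by at least 2-fold, against 80 and 5 in WT. Prdm16, a zinc finger factor that preserves stem cells, had 56 of 67 regions lower and 2 higher. Mllt3, a chromatin reader that maintains stem cell identity, had 53 of 74 lower and 7 higher. Hrh1, a histamine receptor gene, had 45 of 49 lower and 1 higher. Cntnap2, a cell adhesion gene best known from neurons, had 47 of 74 lower and 12 higher. Set against the 34.4% of all tested regions that fell, each of these loci had a higher share, but they were chosen for that count, so it is given as a description. The few regions that rose depended on single libraries: without KO LT-HSC 2 there were 0 at Prdm16 and 2 at Hrh1, and without KO LT-HSC 3, KO MPP 2 or KO MPP 3 there was 1 at Prdm16.

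Single regions at these loci show the size of the loss. In the Mllt3 gene body (chr4:87823222-87823957), KO LT-HSC had 26.0, 24.6 and 24.3 CPM and KO MPP 2.77, 3.88 and 3.72 CPM, a change of -2.83 ± 0.11 (adjusted p = 3.2e-20) against -3.18 in WT. The Prdm16 region (chr4:154496935-154497442) had 24.8, 22.5 and 23.0 CPM in LT-HSC and 7.06, 6.86 and 5.63 CPM in MPP (-1.85 ± 0.10).

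Of the 6 loci with most regions higher by at least 2-fold, Cdk6, Atp8b4 and Fndc3b had few regions that fell. Cdk6 encodes the G1 kinase whose rise accompanies exit of stem cells from quiescence; 60 of its 89 regions rose and 7 fell in KO, against 57 and 9 in WT. Its lowest-p region (chr5:3502454-3503025) had 4.62, 5.13 and 4.77 CPM in KO LT-HSC and 20.9, 22.5 and 22.3 CPM in KO MPP (2.18 ± 0.09, adjusted p = 4.16e-19). Atp8b4, a phospholipid flippase gene, had 37 of 54 regions higher and 6 lower, and Fndc3b 38 of 54 higher and 9 lower. Foxp1, a forkhead factor of lymphoid development, had 61 of 159 higher and 41 lower, Wwox 58 of 124 higher and 36 lower, and Pde4d, a cyclic AMP phosphodiesterase gene, 58 of 166 higher and 57 lower. These last 3 genes held many regions of both directions. Over all tested regions 33.3% rose and 34.4% fell in KO, and the shares at Pde4d lay close to these. All 6 loci were chosen for their count of regions, which also grows with the number tested, so the counts are given as a description.

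**Figure D2:**
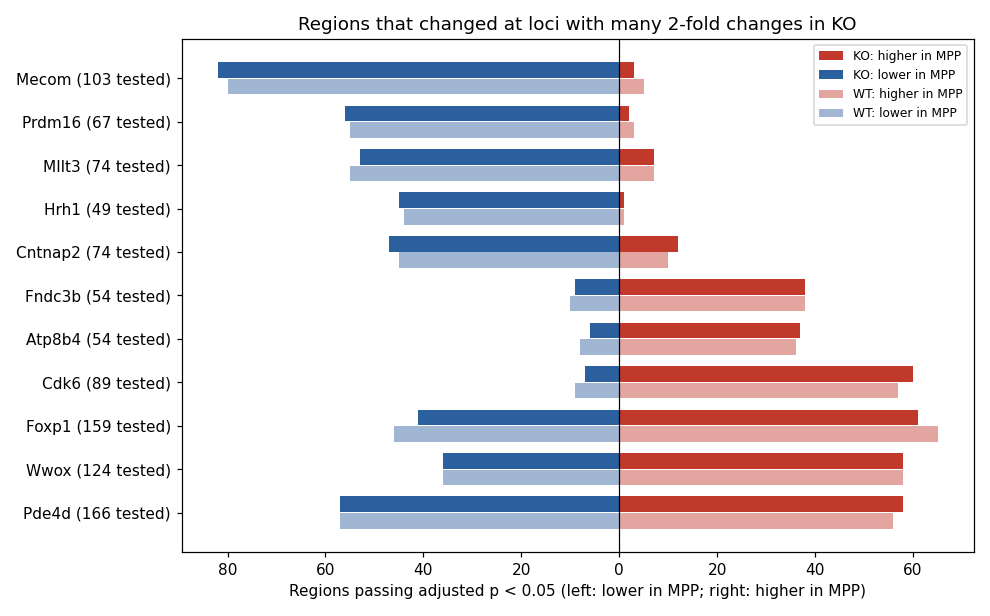
Number of regions that rose (right) or fell (left) at 11 of the loci with most changes of at least 2-fold, in KO (dark) and WT (pale), with the number of tested regions in brackets. Mecom, Prdm16, Mllt3, Hrh1 and Cntnap2 extend to the left and Fndc3b, Atp8b4 and Cdk6 to the right, while Foxp1, Wwox and Pde4d have regions on both sides.

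The list of 30 HSC identity genes had 813 tested regions, of which 533 (65.6%) fell and 93 (11.4%) rose in KO, with a median log2 fold change of -0.82 against 0 over all regions. In WT 526 fell and 102 rose, with a median of -0.84. Over all tested regions 34.4% fell and 33.3% rose in KO, the shares to set beside those of this list and the lists below. At Meis1, a homeobox factor of stem cells, 48 of 73 regions fell and 7 rose, at Angpt1, a ligand of the Tie2 receptor, 48 of 78 fell and 10 rose, and at Hlf 24 of 33 fell and 2 rose. Tek, which encodes Tie2, had 8 of 11 regions lower, each by at least 2-fold, and 1 higher. Tcf15, a quiescence-linked factor, had 11 of 12 lower. The Tcf15 region of lowest p (chr2:152155012-152156227) fell by 2.35 ± 0.09, from 35.6, 33.0 and 37.1 CPM to 8.11, 6.42 and 6.42 CPM. Not all members followed: Erg, which stays active in progenitors, had 27 of 74 regions higher and 21 lower, and Gata2 had 5 of 14 higher and 7 lower.

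The HOX clusters, which encode homeodomain factors that support stem cell self-renewal, had few regions that rose. Of 61 tested Hoxb regions 42 (68.9%) fell and 2 rose, with a median of -0.67 in KO and -0.70 in WT; without KO LT-HSC 1 or 3, or without any of KO MPP 1, 2 and 3, 1 rose. Of 54 Hoxa regions 29 (53.7%) fell and 3 rose, with a median of -0.42 in KO and -0.54 in WT. At Hoxb2 a region (chr11:96351333-96352389) had 10.6, 13.2 and 12.2 CPM in KO LT-HSC and 1.75, 2.49 and 2.21 CPM in KO MPP, a change of -2.44 ± 0.13 (adjusted p = 7.8e-17). At Hoxb5, whose expression marks LT-HSC, 5.97, 6.54 and 5.97 CPM fell to 1.40, 1.97 and 1.48 CPM (-1.90 ± 0.14), and its 3 regions all fell. Hoxa9, by contrast, had 0 of 2 regions past the test in edgeR and in KO, with a median of -0.12.

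In the list of MPP and lymphoid priming genes more regions rose than fell. Of 368 tested regions 173 (47.0%) rose and 96 (26.1%) fell in KO, with a median of 0.29, against 180, 90 and 0.32 in WT. Flt3 had 19 of 21 regions higher and 0 lower, and Il7r, the interleukin 7 receptor of lymphoid cells, 5 of 5 higher. Satb1 had 25 of 37 higher and 5 lower. At Ccr9, a chemokine receptor of cells that seed the thymus, a region 12431 bp from the gene (chr9:123754325-123754780) went from 4.16, 4.35 and 4.85 CPM to 19.2, 19.5 and 18.9 CPM, a rise of 2.12 ± 0.10. Bcl11a and Mef2c, both lymphoid factors, were mixed, with 20 higher and 35 lower of 75 regions and 8 higher and 19 lower of 48.

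The myeloid list had the highest share of regions that rose among the 19 lists. Of 272 tested regions 176 (64.7%) rose and 31 (11.4%) fell, with a median of 0.66, against 175, 38 and 0.68 in WT. Ctsg, the neutrophil protease cathepsin G, had 5 of 5 regions higher by at least 2-fold. Its region at chr14:56105031-56105865 had 0.413, 0.318 and 0.401 CPM in KO LT-HSC and 8.54, 8.12 and 8.79 CPM in KO MPP, a change of 4.47 ± 0.18 (adjusted p = 1.14e-19). At the promoter of Mpo, myeloperoxidase of granule-forming progenitors, 2.92, 2.90 and 3.21 CPM rose to 14.2, 13.6 and 16.5 CPM (2.30 ± 0.12). The alarmin genes S100a8 and S100a9 had 5 of 5 and 8 of 8 regions higher. Gfi1, a transcriptional repressor that granulocyte development needs, had 12 of 14 higher. Lyz2 and Ngp did not follow: Lyz2 had 1 of 5 regions higher and 2 lower, and the 1 region of Ngp fell.

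Cell cycle genes also had more regions that rose than fell, with 166 of 318 regions (52.2%) higher and 48 (15.1%) lower and a median of 0.39 in KO and 0.38 in WT. At Mcm5, a subunit of the replicative helicase, a region (chr8:75119354-75120176) went from 2.45, 2.51 and 2.58 CPM to 14.3, 12.2 and 12.8 CPM (2.38 ± 0.13). At Ccnd3, a G1 cyclin, 4.49, 4.25 and 3.83 CPM rose to 15.8, 14.7 and 14.5 CPM (1.83 ± 0.10). Of the cyclin genes Ccna2 and Ccnb1, each with 1 region, 0 passed the test in edgeR, with changes of 0.02 and -0.06. TNF and NF-kB genes had 132 of 284 regions (46.5%) higher and 65 (22.9%) lower, with a median of 0.21. At Nfkbia, the inhibitor that NF-kB itself induces, 3.47, 2.90 and 3.21 CPM rose to 23.8, 22.8 and 22.4 CPM (2.84 ± 0.11, adjusted p = 1.14e-19). Ribosome biogenesis genes had 36 of 92 regions (39.1%) higher and 20 (21.7%) lower, with a median of 0.16 in KO and 0.27 in WT. Beside these 3 lists, 33.3% of all tested regions rose and 34.4% fell.

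Among megakaryocyte and erythroid genes more regions fell than rose. Of 161 regions 69 (42.9%) fell and 41 (25.5%) rose, with a median of -0.15 in KO and -0.17 in WT. The platelet genes Gp9 (5 of 5 regions), Treml1 (2 of 2) and Gp1ba (2 of 4) had regions that fell and 0 that rose in edgeR. At the Gp1ba promoter, the gene of a platelet adhesion receptor, 41.4, 39.5 and 43.5 CPM in KO LT-HSC fell to 13.3, 13.7 and 11.8 CPM in KO MPP (-1.68 ± 0.08, adjusted p = 1.69e-18). At a Vwf gene end, von Willebrand factor being a marker of platelet-biased stem cells, 8.97, 9.06 and 9.98 CPM fell to 0.624, 0.346 and 0.620 CPM (-4.17 ± 0.19). That region was picked by its lowest p. Over its 32 regions Vwf was mixed, with 8 higher and 14 lower, 5 and 7 of them by at least 2-fold, and a median of -0.09. The erythroid gene Epor, the erythropoietin receptor, had 3 of 3 regions lower.

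Markers of mature cells that a sort could carry over were read for the same libraries. Summed over each list's regions, T cell genes had 474 to 488 CPM in KO LT-HSC and 456 to 490 CPM in KO MPP, and NK cell genes 345 to 369 and 360 to 379 CPM, so these sums overlapped. B cell genes had 299 to 308 CPM in LT-HSC and 346 to 353 CPM in MPP, and macrophage and endothelial genes 817 to 822 and 709 to 738 CPM. Myeloid genes had 1300 to 1320 and 1720 to 1800 CPM, and megakaryocyte and erythroid genes 1210 to 1230 and 989 to 1000 CPM. In bulk libraries a small number of more mature cells and low accessibility in many cells cannot be told apart, and the part of such cells in the myeloid and B cell changes was not tested. B cell genes had 61 of 136 regions (44.9%) higher and 37 (27.2%) lower, against 33.3% and 34.4% of all tested regions. The B cell median of 0.44 was 0.10 over regions with at least 1 CPM in 3 libraries.

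The remaining lists had medians close to that of all regions. AP-1 and immediate early genes had 139 of 356 regions (39%) higher and 106 (29.8%) lower, with a median of 0.07. Interferon response genes had 54 of 132 (40.9%) higher and 43 (32.6%) lower (median 0.11). Quiescence and cell cycle brakes had 159 of 380 (41.8%) higher and 111 (29.2%) lower (median 0.05). Over all tested regions 33.3% rose and 34.4% fell. The medians of AP-1, interferon, and macrophage and endothelial genes (main median -0.13) turned to -0.04, -0.03 and 0.02 with regions within 10 kb of the gene, and that of the heat shock chaperones turned from 0.05 to -0.02 without KO LT-HSC 1. Single regions in these lists, picked by their lowest p, changed by much more. At Foxo1, a factor of stem cell quiescence, 9.39, 9.59 and 9.04 CPM fell to 0.819, 0.617 and 0.566 CPM (-3.84 ± 0.15). Over its 49 regions Foxo1 was mixed, with 19 higher and 15 lower, 14 and 6 of them by at least 2-fold, and a median of -0.03. At 2766 bp from Tgfbr2, a receptor for the quiescence signal TGF-beta, 1.32, 1.34 and 1.20 CPM rose to 15.6, 15.8 and 16.7 CPM (3.63 ± 0.12).

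**Figure D3:**
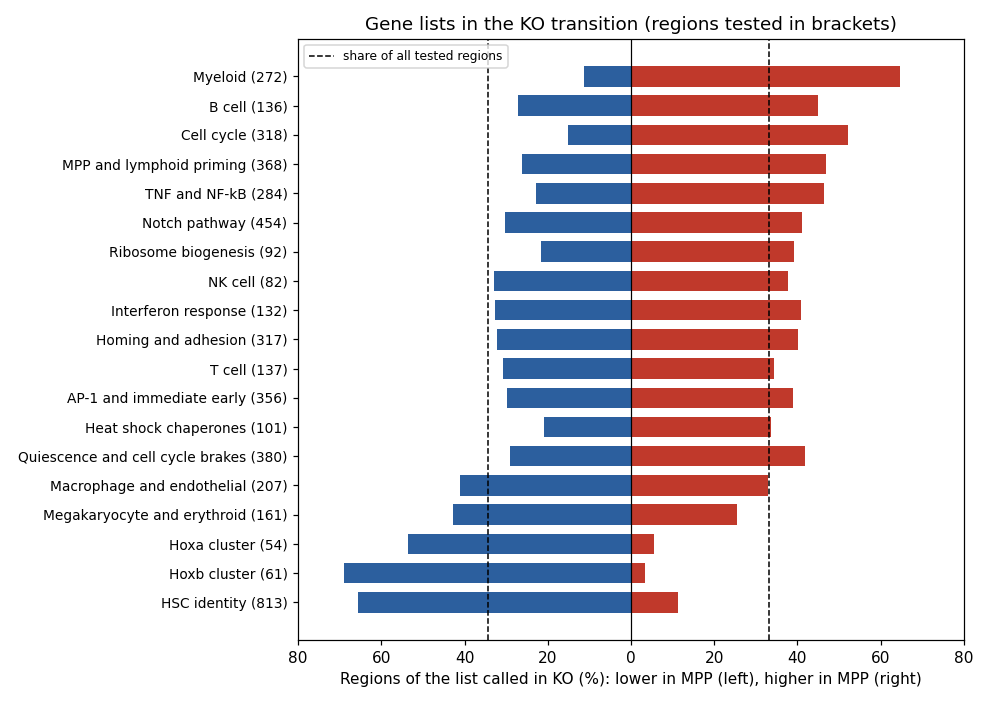
Share of each list's tested regions that fell (left, %) or rose (right, %) from KO LT-HSC to KO MPP, ordered by median log2 fold change, with dashed lines at the shares over all tested regions (34.4% and 33.3%). HSC identity and the Hoxb and Hoxa clusters lie furthest beyond the left line (65.6%, 68.9% and 53.7%) and the myeloid and cell cycle lists furthest beyond the right line (64.7% and 52.2%).

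Regions with the largest changes were nearly closed in 1 of the 2 populations. Among regions above the median level, the largest falls were near Olfr45 (-6.26 ± 0.30), in Lurap1l (-6.16 ± 0.33), in Erc2 (-6.01 ± 0.32) and in Ksr2 (-5.86 ± 0.26). At Olfr45 the 3 KO LT-HSC libraries had 5.31, 4.14 and 4.63 CPM and the 3 KO MPP libraries 0.039, 0.0987 and 0.027 CPM, 6 reads in all. The largest rises were 58683 bp from Ppcdc (5.94 ± 0.46), near Nxpe4 (5.85 ± 0.37), 25770 bp from Nedd9 (5.77 ± 0.29) and in Coq2 (5.67 ± 0.18). The Coq2 region (chr5:100656333-100656782) had 0.633, 0.389 and 0.134 CPM in KO LT-HSC and 22.8, 21.3 and 21.3 CPM in KO MPP, against WT means of 0.447 and 20.1 CPM. F13a1, the clotting factor subunit of monocytes and platelets, had a region 54634 bp away that rose by 5.16 ± 0.26. The 24 largest changes, 12 in each direction, had the same sign in WT, where their log2 fold changes ran from -6.55 to 5.74. Whether such a region regulates its nearest gene was not measured.

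The promoters with the largest rises were chosen after their values were seen. The 12 highest were those of Ctsg (4.30 ± 0.22), Clec2i, the complement gene C3 (3.90 ± 0.22), the leukocyte receptor gene Lilr4b (3.68 ± 0.19), Mrgpra9, Hal, Angptl8, Ifitm6, Kcne3, Cyp4f18, the chemokine gene Ccl3 (3.38 ± 0.15) and Trem1 (3.37 ± 0.14). The 12 lowest included Lsamp (-4.86 ± 0.20), Armh4 (-4.35 ± 0.15), Kcnmb2 (-4.22 ± 0.21) and the neural factor Pou3f4 (-3.82 ± 0.22). At the Ccl3 promoter KO LT-HSC had 2.67, 2.26 and 1.83 CPM and KO MPP 28.6, 22.0 and 22.0 CPM. At Armh4 the values were 11.2, 12.6 and 13.5 CPM in KO LT-HSC and 0.819, 0.543 and 0.512 CPM in KO MPP.

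Promoter windows of 6 genes, from RefSeq on GRCm38.p6, are printed because their accessibility changed by more than 3 on the log2 scale. Mmp8, Nlrp3 and Pdk4 were not among the 12 largest promoter changes per direction. The windows were chosen after their values were seen and do not represent the shares given below. Each printed window that rose holds a PU.1 match, against 42.8% of all windows that rose by at least 2-fold. Each runs 5′ to 3′ on the strand of its gene, from 250 bases before to 50 bases after the start. Capitals mark any match, on either strand, to the PU.1 motif GAGGAA, the C/EBP motif TTGCNNAA or the motif AGATAA of GATA factors. Trem1, a receptor that amplifies myeloid inflammation (chr17:48232489-48232788, plus strand), Ccl3 (chr11:83649329-83649628, minus strand), Mmp8, a neutrophil collagenase (chr9:7558179-7558478, plus strand), and Nlrp3, an inflammasome sensor (chr11:59542436-59542735, plus strand), rose. Pdk4, a kinase that restrains mitochondrial pyruvate use (chr6:5496229-5496528, minus strand), and Armh4 (chr14:49783334-49783633, minus strand) fell.
Trem1: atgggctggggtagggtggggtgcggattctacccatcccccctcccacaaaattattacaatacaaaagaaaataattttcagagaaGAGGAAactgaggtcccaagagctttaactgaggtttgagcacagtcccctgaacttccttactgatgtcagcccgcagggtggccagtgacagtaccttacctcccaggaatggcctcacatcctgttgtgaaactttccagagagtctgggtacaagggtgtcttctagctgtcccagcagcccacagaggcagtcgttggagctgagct
Ccl3: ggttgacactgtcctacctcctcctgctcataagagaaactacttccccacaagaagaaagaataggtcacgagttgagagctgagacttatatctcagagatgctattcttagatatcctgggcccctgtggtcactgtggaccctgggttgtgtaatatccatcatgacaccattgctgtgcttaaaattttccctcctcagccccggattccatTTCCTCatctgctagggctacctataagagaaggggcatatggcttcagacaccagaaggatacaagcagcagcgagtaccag
Mmp8: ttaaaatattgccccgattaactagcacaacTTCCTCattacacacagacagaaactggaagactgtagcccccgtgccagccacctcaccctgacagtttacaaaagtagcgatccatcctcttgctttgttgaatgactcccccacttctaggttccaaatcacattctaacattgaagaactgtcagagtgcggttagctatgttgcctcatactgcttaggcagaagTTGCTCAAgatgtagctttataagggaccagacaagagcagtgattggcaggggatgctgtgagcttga
Nlrp3: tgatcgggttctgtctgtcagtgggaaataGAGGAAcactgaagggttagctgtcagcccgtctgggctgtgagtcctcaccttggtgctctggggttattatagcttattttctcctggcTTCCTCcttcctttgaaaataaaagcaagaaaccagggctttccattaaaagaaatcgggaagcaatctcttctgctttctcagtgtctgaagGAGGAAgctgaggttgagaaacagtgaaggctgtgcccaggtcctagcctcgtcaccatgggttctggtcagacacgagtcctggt
Pdk4: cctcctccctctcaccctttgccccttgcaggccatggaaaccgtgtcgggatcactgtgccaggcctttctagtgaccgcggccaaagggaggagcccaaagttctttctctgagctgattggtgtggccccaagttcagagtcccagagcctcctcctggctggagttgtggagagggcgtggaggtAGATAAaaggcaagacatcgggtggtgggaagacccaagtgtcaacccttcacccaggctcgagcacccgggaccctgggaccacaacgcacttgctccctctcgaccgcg
Armh4: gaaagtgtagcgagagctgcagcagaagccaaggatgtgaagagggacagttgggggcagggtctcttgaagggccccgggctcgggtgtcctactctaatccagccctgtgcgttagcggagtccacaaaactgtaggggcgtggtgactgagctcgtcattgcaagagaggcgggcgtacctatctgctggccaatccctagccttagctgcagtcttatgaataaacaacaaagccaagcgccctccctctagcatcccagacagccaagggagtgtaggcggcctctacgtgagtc

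At the Trem1 window the KO LT-HSC libraries had 1.10, 1.20 and 1.16 CPM and the KO MPP libraries 11.7, 13.4 and 10.7 CPM (log2 fold change 3.37 ± 0.14, adjusted p = 6.14e-19, WT 3.56). At Nlrp3, which holds 3 PU.1 matches, 1.05, 1.38 and 1.43 CPM became 11.7, 11.8 and 11.7 CPM (3.22 ± 0.14, WT 3.01). At Mmp8, which holds a PU.1 and a C/EBP match, 0.688, 0.601 and 0.534 CPM became 5.34, 4.91 and 5.61 CPM (3.09 ± 0.19, WT 3.07). In all 3 the groups were far apart and the WT change was of similar size. At Pdk4, which holds a GATA match, 27.3, 26.5 and 26.2 CPM became 3.59, 2.94 and 3.02 CPM (-3.08 ± 0.10, adjusted p = 1.57e-21, WT -2.95). The Armh4 window holds none of the 3 motifs. Nlrp3 has a second window (chr11:59541319-59541618, plus strand) that is not printed. Its region rose by 3.08, and it holds 1 GATA match, 0 PU.1 matches and 0 C/EBP matches.

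Over all promoter windows that overlapped a tested region by at least 150 bases, the 2 directions differed in base composition. The 600 windows that rose by at least 2-fold (547 genes) had a median of 4 CpG and 50.3% GC, the 1471 that fell by at least 2-fold (1337 genes) a median of 12 CpG and 57.7% GC, and all 14969 windows a median of 20 CpG and 60.7% GC. GAGGAA was found in 42.8% of the windows that rose, 27.9% of those that fell and 27.9% of all. TTGCNNAA was found in 20.5%, 9.18% and 8.64%, and TGTGGT, bound by RUNX factors, in 28.5%, 14.4% and 13.7%. AGATAA was found in 15.8%, 10.1% and 6.48%. The SP and KLF motif GGGCGG was found in 22.0%, 45.8% and 61%, and the ETS motif CCGGAA, which shares the core GGAA with GAGGAA though no 6 bases match both, in 10%, 8.36% and 25.2%. Among all 32851 windows of the table GAGGAA was in 28.3%, TTGCNNAA in 10.8%, TGTGGT in 16.8%, AGATAA in 11.2%, GGGCGG in 35.7% and CCGGAA in 14.9%. These shares describe letters, not binding, and the part of base composition in them was not tested.

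Set beside the WT transition, the KO transition was of about the same extent. In WT 130002 regions (69.8%) passed the test, 64488 of them higher (34.6%) and 65514 lower (35.2%), with the same median absolute log2 fold change of 0.71. Changes of at least 2-fold numbered 33437 and 34707 in WT against 34430 and 34176 in KO. The 2 transitions share no library, but share the scaling and the estimate of spread. Of the regions called in KO, 89.3% were called in the same direction in WT, and of those called in WT 86.6% were called in the same direction in KO. Of the KO regions that changed at least 2-fold, 96.2% were called the same way in WT. A call in the opposite direction was found in 43 regions, with a median absolute KO change of 0.41 and 0 differences passing the test in edgeR (43 at an unadjusted p under 0.05). Another 13500 regions were called in KO and not in WT, and 17350 in WT and not in KO, but the difference itself passed in 1 of these.

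The sizes of the changes were also close. Across regions the KO log2 fold changes followed those of WT with a slope of 0.981 and Pearson's r of 0.954, a description over regions that share libraries. The 9 pairs of a KO LT-HSC with a KO MPP library gave slopes of 0.959 to 1.006. With the axes exchanged the slope was 0.927. Among regions chosen in WT the median ratio of the KO to the WT change was 0.957 where WT rose and 0.97 where WT fell. Among regions chosen in KO the median ratio of the WT to the KO change was 0.952 and 0.955. Each choice favours the genotype that made it, so neither ratio shows that a genotype changed less. On a score of the regions that changed at least 2-fold in WT (mean log2 level of those that rose minus that of those that fell), KO LT-HSC lay at -1.86 ± 0.03 and KO MPP at 1.49 ± 0.06 (SD, n = 3), a distance of 3.35. WT LT-HSC lay at -1.80 ± 0.07 and WT MPP at 1.59 ± 0.11 (SD, n = 3), a distance of 3.39. With the regions chosen in KO the distances were 3.48 in KO and 3.24 in WT.

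**Figure D4:**
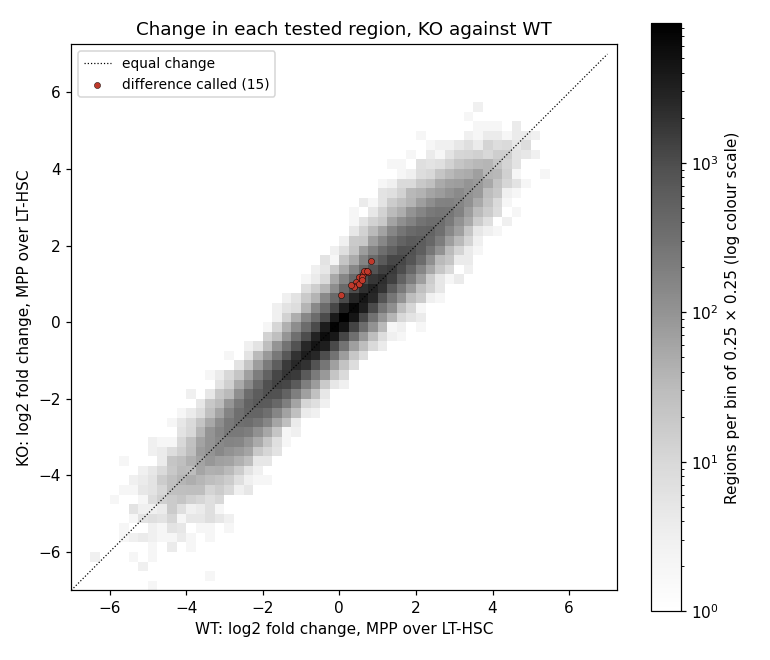
Log2 fold change of MPP over LT-HSC in KO (vertical) against WT (horizontal) for the 186373 tested regions, as the number of regions per bin on a log colour scale, with the line of equal change. Most regions lie along the line, and the slope of KO on WT was 0.981.

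The difference between the transitions passed the test in 15 regions (0.00805% of those tested), and in this fit the change was larger in KO in all 15. At an unadjusted p under 0.05 there were 14082 regions (7.56%), 6860 with the higher and 7222 with the lower log2 fold change in KO. In the gene body of Gphn, which encodes the synaptic scaffold gephyrin (chr12:78350782-78351185), KO LT-HSC had 40.6, 35.7 and 36.7 CPM and KO MPP 82.8, 80.1 and 91.9 CPM. WT LT-HSC had 46.9, 47.1 and 45.7 CPM and WT MPP 69.2, 68.5 and 62.6 CPM. The log2 fold change was 1.17 in KO and 0.52 in WT, a difference of 0.65 ± 0.09 (adjusted p = 0.00227). In Cdk8, a kinase of the Mediator complex (chr5:146260956-146261357), 89.2, 78.5 and 77.9 CPM became 195, 191 and 232 CPM in KO, and 96.4, 99.6 and 89.3 CPM became 163, 160 and 141 CPM in WT. The difference was 0.63 ± 0.09 (adjusted p = 0.00653). At chr3:5860442-5860845, with no gene within 100 kb, it was 0.63 ± 0.09 (adjusted p = 0.00227), and the KO libraries had 148, 130 and 123 CPM in LT-HSC and 270, 262 and 305 CPM in MPP. The largest of the 15 differences was 0.77, so none reached 2-fold.

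These 15 regions had features in common, some of which the test itself favours. In all 15 the KO LT-HSC mean lay below the WT LT-HSC mean and the KO MPP mean above the WT MPP mean. The difference is computed from these 4 group means, so a call favours that pattern. By level, 9 lay in the top 1% and 12 in the top 5% of tested regions. The median standard error of the KO change was 0.36 in the lowest quartile of level and 0.1 in the highest. A difference of a given size thus passes more easily at a high level. KO MPP 3 was the highest KO MPP library in 14 of 15, against 34.6% of all tested regions, and KO LT-HSC 3 was the lowest KO LT-HSC library in 11 of 15, against 37.6%. Of the 15, the region at chr17:39847645-39848046 overlaps the 18S ribosomal RNA pseudogene Rn18s-rs5. The part of these features in the differences was not tested. The count of 15 depended on single libraries: it was 0 without KO LT-HSC 2, 2 without KO LT-HSC 3, 2 without WT LT-HSC 1, 5 without KO MPP 3, 7 without WT LT-HSC 2, 9 without KO MPP 2 and 31 without WT LT-HSC 3, of which 13 were lower in KO. Without WT MPP 3 it was 22, of which 9 were lower in KO. The split also depended on the fit, with 24 higher and 3 lower when scaled by total counts, 26 higher and 6 lower with a loess offset, and 38 higher and 33 lower in DESeq2. The regions of lowest p with a lower KO value did not pass: the differences were -0.59 near Spsb1 (adjusted p = 0.0574), -0.61 near Tifab (adjusted p = 0.0636) and -1.01 in Ptpn14 (adjusted p = 0.0641), and all 3 passed in DESeq2, at adjusted p-values of 0.0052 to 0.00825. Of the 4663 tested regions assigned to a listed gene, 0 had a difference that passed in this edgeR fit, and 363 had an unadjusted p under 0.05. With total counts, with a loess offset or without KO MPP 3 there was 1 such region, and in DESeq2 there were 2.

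**Figure D5:**
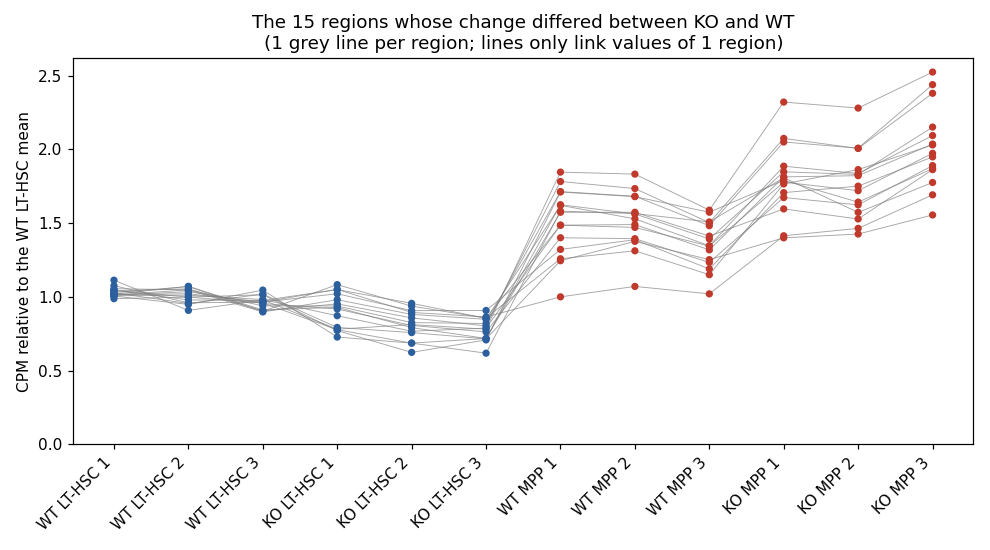
CPM relative to the WT LT-HSC mean (vertical axis, from 0) at the 15 regions whose change differed between KO and WT, in each of the 12 libraries. Each grey line only links the values of 1 region. The rise from LT-HSC to MPP is larger in KO in each region, as at Gphn (1.17 against 0.52 on the log2 scale).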

How the data were processed

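ATAC-seq of sorted LT-HSC and MPP from Phf6 KO and WT male mice gave 12 libraries, 3 in each of 4 groups, placed by their labels. The authors deposited raw read counts per region in 1 table for the series, over regions shared by all libraries; 0 of its count columns belonged to no labelled sample. Per the submitters' processing notes, the tools were featureCounts, MACS2 2.1.1, Bowtie2, DESeq2 1.22.1 and cutadapt, and the build GRCm38, with no role or order given. The treatment of duplicates and Tn5 offsets is not given in the labels or notes used here.

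From the counts, regions with low counts were removed with edgeR's filterByExpr, libraries were scaled by TMM, and 1 quasi-likelihood model with a mean per group was fitted to all 12 libraries (edgeR 4.0.16, limma 3.58.1, DESeq2 1.42.0, R 4.3.3). The contrasts were MPP minus LT-HSC in KO, the same in WT, and their difference, each adjusted by Benjamini-Hochberg over all tested regions at 0.05. All 12 libraries were fitted together so that the 4 groups share an estimate of spread. Region classes came from RefSeq genes: a promoter lay within 1000 bp of a start, and other regions were assigned to the nearest gene within 100 kb, which gave 172530 of 188262 regions a gene. For genes without a strand in the table, neither end was taken as the start. Total counts of 22665988 to 48547234 per library and a common biological coefficient of variation of 8.18% set the precision. The methods were tested on simulated counts.

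The comparison and the 19 gene lists (352 genes, some in several lists) were chosen with earlier results of these data known. Named regions were the 12 called regions of largest change per direction (above the median level, libraries not overlapping), up to 3 members per list by lowest p, the 6 loci per direction with most 2-fold regions, up to 6 called differences per direction by lowest p, or the 3 of lowest p where none passed, and the defining genes and Phf6. Alternatives were other scalings (RLE, total counts, loess), filters, tools, thresholds, a replicate block, thinning to the smallest library, the KO libraries alone, each library left out, and genes within 10 kb. For LT-HSC the labels name individual mice; for MPP they do not say whether the libraries are separate animals, so the p-values may partly measure technical spread. A few genes that this rule names are not reported here.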

Additional observations from a re-analysis of the deposited data

Results flagged for a closer look

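The 6 differences of lowest p between the KO and WT changes are set out here because the test of the difference itself passed. In log2 units, KO minus WT, they were 0.65 in Gphn, 0.63 at chr3:5860442-5860845 with no gene within 100 kb, 0.58 at 10011 bp from Myl12b, 0.63 in Cdk8, 0.55 in Lars2 and 0.64 in Zc3h7a. The adjusted p-values of edgeR's quasi-likelihood test were 0.00227, 0.00227, 0.00653, 0.00653, 0.00857 and 0.0146. All 3 KO MPP libraries lay above all 3 KO LT-HSC libraries at each of the 6, as in 35.2% of all tested regions. This describes the KO change alone and does not bear on the difference from WT. Each lost its call in at least 1 alternative. Without KO LT-HSC 2 their adjusted p-values were 0.0553, 0.0553, 0.0686, 0.117, 0.15 and 0.175, while the differences stayed between 0.52 and 0.62.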

How the results depend on the processing

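Over the alternatives the slope of KO on WT ran from 0.956 (without WT MPP 3) to 0.993 (without KO MPP 2), against 0.981 in the main fit. The balance of directions did not hold. In KO slightly more regions fell than rose in most fits, and slightly more rose with the KO libraries alone (64570 against 63669), at 1 CPM or more in 3 libraries (54146 against 53991) and without WT MPP 3 (64198 against 63366). The KO transition called 116526 to 127564 regions when each library was left out (57212 to 64198 higher, 59314 to 64634 lower), and WT 121959 to 130266. Against a minimum of 1.5-fold (glmTreat) KO had 74480 (36252 higher, 38228 lower), WT 75762 and the difference 0. The slope of KO on WT was 0.956 to 0.993 with each library left out. The 15 differences became 0 to 31 with each library left out, 27 with total counts, 32 with a loess offset, 71 in DESeq2 (which gave 137307 regions no adjusted p), 8 in limma-voom and 5 at an adjusted p of 0.01. The original 15 were all among those called with total counts, with loess and in DESeq2, and all 8 of limma-voom were among the 15. The cause of these shifts was not tested.

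The libraries share replicate numbers, but the labels do not say that a number marks an animal or batch. Same-numbered KO libraries deviated together at r = 0.054, 0.064 and 0.055 and differently numbered ones at -0.042 to -0.015, and in WT at 0.073, 0.089 and 0.114 against -0.078 to -0.006. Each library correlated best with its own number, a hint from the data and not the design. With the replicate block KO had 129179 called regions, WT 133535 and the difference 233, of which 91 were higher and 142 lower in KO, so that most differences were then lower in KO. At regions of listed genes it called 7 differences.

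Of 144 named regions called in KO, 136 were called in every alternative run; the other 8 lost the call in at least 1. Depth limited regions with few reads, where a fold change rests on counts near 0 in 1 population.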

Other observations

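In KO, 187 of the 454 regions at Notch pathway genes rose and 137 fell, with a median log2 fold change of 0.18 (0.10 in WT). These are 41.2% and 30.2%, beside 33.3% and 34.4% of all tested regions. Near Notch1, a receptor of T cell commitment, 1.79, 1.80 and 1.60 CPM in KO LT-HSC became 11.2, 9.40 and 10.9 CPM in KO MPP (2.59 ± 0.13). Near Notch3, 20.4, 23.7 and 22.8 CPM became 4.21, 6.20 and 5.71 CPM (-2.03 ± 0.10), so members of the family had regions of both directions. Homing and adhesion genes had 127 of 317 regions higher and 102 lower (40.1% and 32.2%, median 0.10), with Itgb2, the shared chain of the leukocyte integrins, at 3.75 ± 0.16 and Jam3, a junction protein of stem cells, at -2.36 ± 0.11.

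T cell genes had 47 of 137 regions higher and 42 lower (34.3% and 30.7%, median 0.10), close to the shares of all tested regions, and NK cell genes 31 of 82 higher and 27 lower (37.8% and 32.9%, median 0.15, or 0.03 over regions with at least 1 CPM in 3 libraries). Heat shock chaperones had 34 of 101 regions higher and 21 lower (33.7% and 20.8%), and macrophage and endothelial genes 68 of 207 higher and 85 lower (32.9% and 41.1%).

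The promoters of Sprr2a1, Sprr2a2 and Sprr2a3, near-identical copies among which the counting could split reads, were uneven between replicates. At Sprr2a1 KO LT-HSC had 19, 16.8 and 2.05 CPM and KO MPP 0.897, 0.963 and 0.0539 CPM, so that library 3 was the lowest in both groups. The changes at the 3 copies were -4.39 ± 0.48, -4.49 ± 0.49 and -4.35 ± 0.44 in KO.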
